A study of Mus musculus with 6 samples.

Results

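The cytosolic ribosome is built from a small (40S) and a large (60S) subunit, each a core of ribosomal RNA clothed in proteins that are encoded by single genes scattered over the genome. In most cells these genes are among the most abundant messengers, their proteins are made in matched amounts, and many of their mRNAs begin with a terminal oligopyrimidine (TOP) tract through which the kinase mTORC1 sets their translation. In the infarcted heart the ribosome is of interest because fibroblasts that build the scar and muscle cells that enlarge both make protein at a high rate.

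The genes described here are the protein-coding mouse genes with symbols of the Rpl or Rps type plus Rplp0, Rplp1, Rplp2 and Rpsa. The symbol pattern matched 102 genes; 10 genes of the Rps6k kinases and 8 others left out by name brought this to 84, of 35498 genes in all and 21794 protein-coding genes. They hold 30 genes of the 40S subunit and 44 of the 60S subunit (together called the subunit genes below), 2 paralogs (Rpl10l and Rpl36al), 7 further copies that the annotation lists as protein-coding genes (such as Rps12-ps3), and Rps19bp1, which encodes a nucleolar protein that is not a ribosomal subunit. Rps4l is annotated as a pseudogene and was therefore no member. In the edgeR fit 81 of the 84 passed the filter on low counts, and the other 3, Rpl10l, Rpl36-ps4 and Rpl9-ps1, were given 0 reads in each of the 6 libraries. A count of 0 allows a level of up to 0.15 to 0.181 CPM (counts scaled by library depth), taking 3 counts per library as the limit, for counting error only.

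Poly-A RNA was sequenced from ventricular tissue below the ligature, 7 days after an infarct was made by tying off the LAD coronary artery, in C57BL/6J mice aged 8 to 10 weeks. The knockout group (Runx1_FB_KO, n = 3) had the genotype Postn CreER+/-; Runx1 fl, and the control group (CTL, n = 3) had Postn CreER+/-; Runx1 WT. Both groups therefore carried the same recombinase, which acts in cells that use the periostin promoter, and both ate a tamoxifen diet from the day of surgery. Runx1_FB_KO replicate 1 was male and replicates 2 and 3 were female; CTL replicate 1 was female and replicates 2 and 3 were male. No uninjured heart is among the samples analysed here, and the labels do not state how the animals were assigned to surgery or collected.

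The libraries held 16584941 to 19967422 estimated reads matched to genes. Runx1, the targeted transcription factor gene, stood at 17.5, 10.9 and 67.4 CPM in Runx1_FB_KO replicates 1 to 3, against 96.4, 86.9 and 85.5 CPM in CTL replicates 1 to 3. Its log2 fold change (Runx1_FB_KO over CTL) had an edgeR adjusted p of 0.154, and of 0.000142 when Runx1_FB_KO replicate 3 was left out. That library thus lay nearest to CTL for the targeted gene, and results are given with and without it where that changes a call. It was singled out by its values in these data. For 66 of the 81 ribosomal protein genes tested it was the highest knockout library, so leaving it out lowers their knockout mean. Over all genes the edgeR calls went from 0 to 6947 without it. Calls made without it show how far a result depends on that library and are no separate support. Mitochondrially encoded genes took 24.5%, 19.6% and 10.4% of reads in the knockout libraries and 5.69%, 7.11% and 5.36% in CTL.

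The ribosomal protein genes took a smaller share of the transcriptome in each of the 3 knockout libraries. They held 1.46%, 1.65% and 2.71% of all reads in Runx1_FB_KO replicates 1 to 3, against 3.83%, 3.20% and 3.69% in CTL replicates 1 to 3. The group means were 1.94% ± 0.67 and 3.57% ± 0.33 (SD, n = 3 each), a difference of -1.63 percentage points. With mitochondrially encoded genes taken out of the denominator the shares were 1.94%, 2.05% and 3.02% in the knockout, against 4.06%, 3.44% and 3.90% in CTL, so the groups did not overlap on that scale either. On the TPM scale, which divides by transcript length as well as depth, they made up 3.86%, 4.71% and 8.72% of the knockout transcriptome and 13.1%, 11.0% and 12.7% of that in CTL. On all 3 scales replicate 3 was the knockout library nearest to CTL. In bulk tissue fewer cells of a type and less RNA per cell cannot be told apart.

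**Figure D1:**
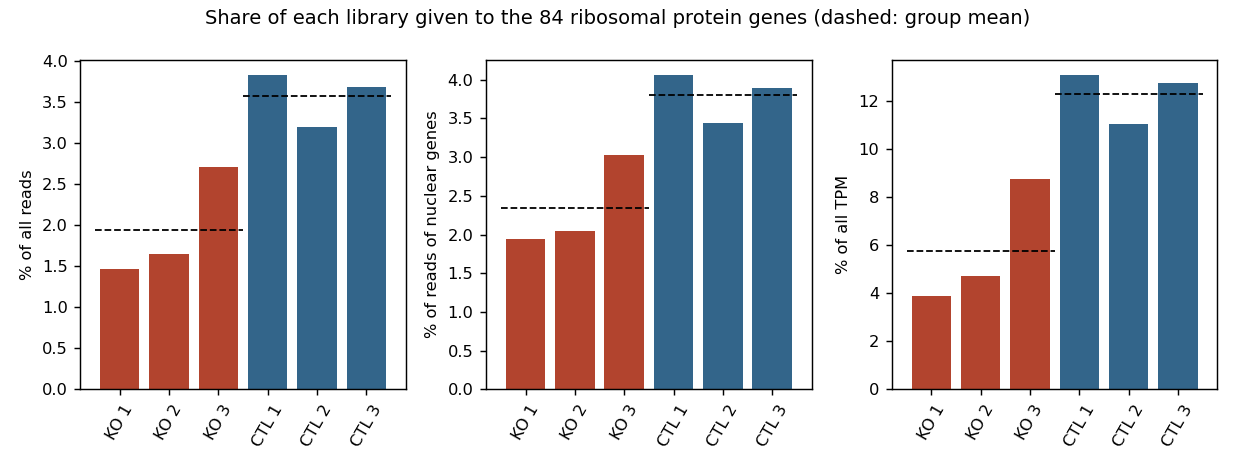
Share of each library held by the 84 ribosomal protein genes, as a percentage of all reads, of reads of nuclear genes and of all TPM (vertical axes, from 0), in 3 Runx1_FB_KO (KO) and 3 CTL libraries; dashed lines are group means. Each knockout bar is below each CTL bar, and KO replicate 3, at 2.71% of all reads, is the tallest knockout bar.

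After the libraries were scaled by TMM, which sets them to a common level for the typical gene, the differences were smaller but pointed the same way. The median subunit gene lay at -0.65, -0.42 and -0.25 in Runx1_FB_KO replicates 1 to 3, and at 0.11, -0.11 and 0.01 in CTL replicates 1 to 3, in log2 CPM relative to the CTL mean. Of the 74 subunit genes, 74, 72 and 73 were below their CTL mean in the 3 knockout libraries, against 2, 72 and 29 in the CTL libraries, so CTL replicate 2 was also low for most of them. The subunits moved alike within a library: the median 40S gene was at -0.69, -0.45 and -0.24 in the knockout, and the median 60S gene at -0.62, -0.39 and -0.25.

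**Figure D2:**
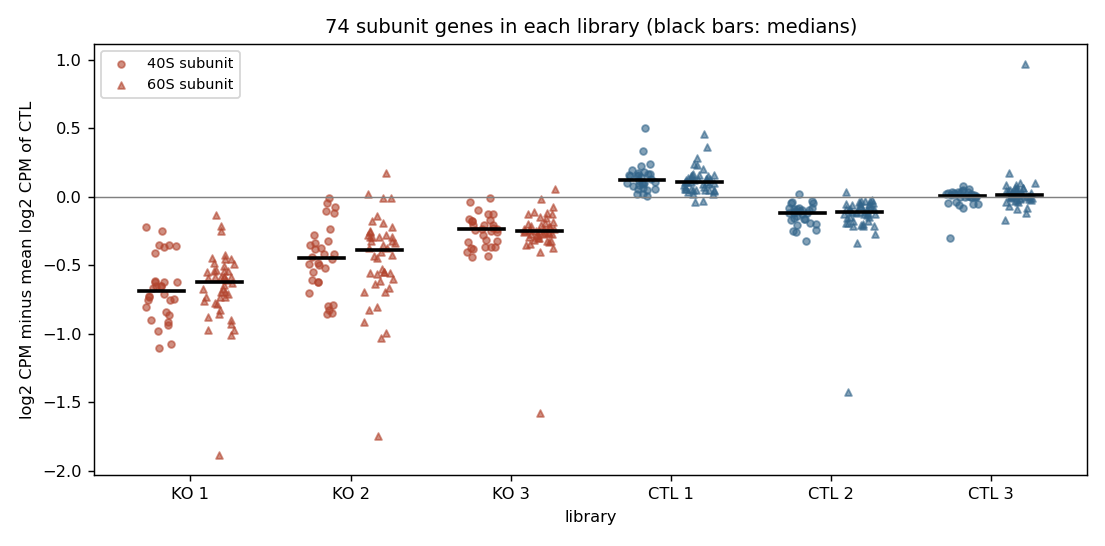
Log2 CPM of each of the 74 subunit genes minus its CTL mean (vertical axis) in each library (horizontal axis; KO is Runx1_FB_KO), with circles for 40S genes, triangles for 60S genes and black bars for medians. The median of both subunits is lowest in KO replicate 1 and nearest to CTL in KO replicate 3; the single triangle far below the rest in CTL replicate 2 is Rpl30.

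Gene by gene, 80 of the 81 genes tested had a negative log2 fold change (Runx1_FB_KO over CTL), where 54.0% of all 14237 genes tested did. The median over the 81 was -0.43, against -0.06 over all genes, and their middle range ran from -0.57 to -0.32 (quartiles). All 74 subunit genes were on the negative side, from -2.04 for Rpl30 to -0.06 for Rpl36. In 65 of the 81 all 3 knockout libraries lay below all 3 CTL libraries, which was so for 18.8% of all genes tested; in none did all 3 lie above, which was so for 20.2% of all genes. By subunit the first of these counts was 26 of 30 for 40S genes and 36 of 44 for 60S genes.

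With all 6 libraries no single ribosomal protein gene passed the threshold by edgeR or limma-voom, and 26 did by DESeq2. By edgeR, 0 of 81 had an adjusted p under 0.05 (0.0% of all genes tested did), with a smallest value of 0.0783; 33 had an unadjusted p under 0.05 on the lower side, against 13.1% of all genes, and none on the higher side, against 19.3%. Limma-voom also called 0. DESeq2 called 26 lower, against 6.08% of all genes with an adjusted value, and 0 higher, against 16.0%; the 26 were 11 genes of the 40S subunit, 14 of the 60S subunit and Rps12-ps3. Without Runx1_FB_KO replicate 3 edgeR called 42 lower and 0 higher, against 22.5% and 25.1% of all genes, and these 42 included 19 genes of the 40S and 21 of the 60S subunit. The count thus rested on that library, and its sign did not: the median log2 fold change was -0.49 without it. The 33 at an unadjusted p under 0.05 became 1 or 2 without Runx1_FB_KO replicate 1, Runx1_FB_KO replicate 2, CTL replicate 1 or CTL replicate 3, and 15 without CTL replicate 2.

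**Figure D3:**
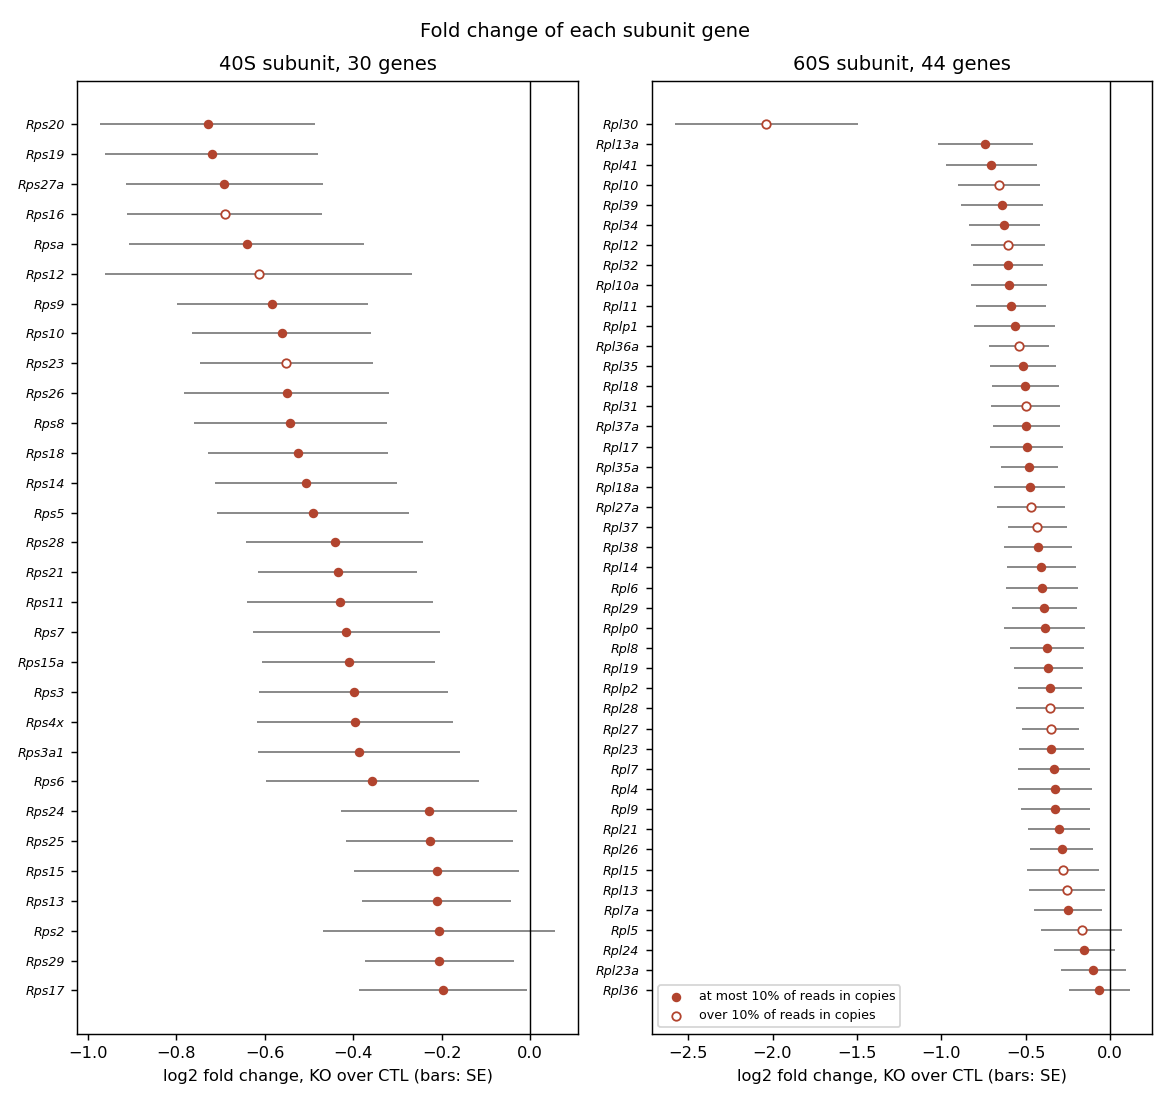
Log2 fold change of Runx1_FB_KO (KO) over CTL with its standard error (horizontal axis) for each 40S and each 60S gene, ordered by size; open circles mark genes for which over 10% of the reads of the gene and its sequence copies went to the copies. All 74 points are left of 0, and Rpl30 stands apart at -2.04; the panels have different horizontal scales.

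Among genes of the small subunit, the smallest p-values belonged to Rps16, Rps27a and Rps20. Rps16 had 140, 147 and 202 CPM in Runx1_FB_KO replicates 1 to 3, against 300, 226 and 263 CPM in CTL. It differed by -0.69 on the log2 scale (SE 0.22, edgeR adjusted p = 0.1005). Leaving out Runx1_FB_KO replicate 3 gave -0.83 (edgeR adjusted p = 0.0048). Rps27a, whose product is made as a fusion with ubiquitin, had 175, 193 and 256 CPM in the knockout, against 377, 298 and 334 CPM in CTL, a log2 fold change of -0.69 (SE 0.22, edgeR adjusted p = 0.102). Rps20 had 165, 204 and 275 CPM in the knockout and 389, 317 and 362 CPM in CTL, a log2 fold change of -0.73 (SE 0.24, edgeR adjusted p = 0.108). For each of the 3 the groups did not overlap, which their choice by p-value makes likely. All knockout libraries lay below all CTL libraries, as in 18.8% of all genes tested, and knockout replicate 3 was the highest of its group. Leaving out Runx1_FB_KO replicate 3 brought Rps27a to -0.83 (edgeR adjusted p = 0.00448) and Rps20 to -0.90 (edgeR adjusted p = 0.00403), past the threshold like Rps16.

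Rps19, the gene most often mutated in human Diamond-Blackfan anaemia, had 148, 162 and 227 CPM in the knockout and 342, 245 and 298 CPM in CTL, with a log2 fold change of -0.72 (SE 0.24, edgeR adjusted p = 0.108). Rpsa, which also acts as a receptor for laminin, had 544, 673 and 776 CPM in the knockout and 1208, 861 and 1037 CPM in CTL, a log2 fold change of -0.64 (SE 0.27, edgeR adjusted p = 0.1499). Rps6, the subunit protein that the S6 kinases phosphorylate downstream of mTORC1, lay closer together: it had 364, 489 and 544 CPM in the knockout and 663, 546 and 580 CPM in CTL, so knockout replicate 3 and CTL replicate 2 were nearly level. At -0.36 on the log2 scale (SE 0.24, edgeR adjusted p = 0.316), it was not called without Runx1_FB_KO replicate 3 either (edgeR adjusted p = 0.0889). Rps19 and Rpsa were called in that fit, at -0.88 (edgeR adjusted p = 0.00564) and -0.72 (edgeR adjusted p = 0.0229).

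In the large subunit Rpl30, Rpl36a and Rpl34 had the smallest p-values; Rpl30 is taken up with the copies below. Rpl34 had 127, 155 and 189 CPM in the knockout and 270, 221 and 235 CPM in CTL, a log2 fold change of -0.63 (SE 0.21, edgeR adjusted p = 0.109). The stalk genes, whose proteins recruit elongation factors to the 60S subunit, were Rplp0 at -0.39 (SE 0.24), Rplp1 at -0.56 (SE 0.24) and Rplp2 at -0.36 (SE 0.19). Their edgeR adjusted p-values were 0.2799, 0.154 and 0.221. In all 3 the knockout libraries lay below all CTL libraries, as in 18.8% of all genes tested. Rplp1, among the highest of them per length, had 361, 445 and 525 CPM in the knockout, against 724, 579 and 666 CPM in CTL. Rpl11, which with Rpl5 and 5S ribosomal RNA can bind the p53 regulator Mdm2, had 217, 235 and 298 CPM in the knockout and 404, 345 and 377 CPM in CTL, a log2 fold change of -0.59 (SE 0.21, edgeR adjusted p = 0.117). Rpl38, known in mouse for its part in the translation of Hox mRNAs, had 70.5, 69.6 and 97.5 CPM in the knockout and 125, 101 and 94.2 CPM in CTL. Its groups overlapped, since knockout replicate 3 was above CTL replicate 3, and it differed by -0.43 on the log2 scale (SE 0.20, edgeR adjusted p = 0.1805). With Runx1_FB_KO replicate 3 left out, 4 of these 60S genes passed the threshold: Rpl34 at -0.74 (edgeR adjusted p = 0.00764), Rplp1 at -0.66 (edgeR adjusted p = 0.0188), Rpl11 at -0.69 (edgeR adjusted p = 0.00687) and Rpl38 at -0.56 (edgeR adjusted p = 0.0193). Rplp0 and Rplp2 did not (edgeR adjusted p = 0.0987 and 0.1396).

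Rpl13a and Rpl41 had the most negative log2 fold changes of the 60S genes after Rpl30. Rpl13a, known in inflammatory macrophages for a role outside the ribosome in silencing translation, had 387, 370 and 613 CPM in the knockout and 780, 654 and 852 CPM in CTL, a log2 fold change of -0.74 (SE 0.28, edgeR adjusted p = 0.134). Rpl41, which encodes the shortest protein of the ribosome, had 331, 345 and 529 CPM in the knockout and 746, 562 and 654 CPM in CTL, a log2 fold change of -0.70 (SE 0.27, edgeR adjusted p = 0.135). For both, knockout replicates 1 and 2 were close together and replicate 3 was far above them, just under the lowest CTL library. Both passed the threshold without it, Rpl13a at -0.97 (edgeR adjusted p = 0.0035) and Rpl41 at -0.91 (edgeR adjusted p = 0.00445). By the mean over all 6 libraries these 2 genes and Rplp1 also had the highest levels per length of the subunit genes, at 1452 ± 989, 1832 ± 1135 and 1963 ± 966 TPM in the knockout for Rpl13a, Rpl41 and Rplp1, against 3546 ± 447, 4703 ± 796 and 4492 ± 574 TPM in CTL (SD, n = 3 each).

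The X-linked members were Rpl10, Rpl36a, Rpl39 and Rps4x; the sexes were not balanced between the groups. Rpl36a had 59.0, 65.8 and 83.9 CPM in the knockout, against 102, 92.8 and 108 CPM in CTL, a log2 fold change of -0.54 (SE 0.18, edgeR adjusted p = 0.107). Rpl39 had 114, 130 and 198 CPM in the knockout and 235, 224 and 230 CPM in CTL, a log2 fold change of -0.64 (SE 0.24, edgeR adjusted p = 0.131). The spread of Rpl39 was thus wide in the knockout and narrow in CTL. Rps4x had 436, 544 and 585 CPM in the knockout and 697, 668 and 695 CPM in CTL, a log2 fold change of -0.40 (SE 0.22, edgeR adjusted p = 0.239). The median over the 4 genes was -0.59. In 3 of them all knockout libraries lay below all CTL libraries, which was so for 18.8% of all genes tested. Without Runx1_FB_KO replicate 3, Rpl36a was at -0.65 (edgeR adjusted p = 0.00609) and Rpl39 at -0.87 (edgeR adjusted p = 0.00162), both past the threshold, and Rps4x was not (edgeR adjusted p = 0.0563). With sex as a covariate the median over all 81 genes tested was -0.51, and edgeR again called 0.

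Some subunit genes hardly differed, and 3 were picked out after their values were seen. Rpl36 had 156, 193 and 144 CPM in the knockout and 168, 165 and 182 CPM in CTL, with a log2 fold change of -0.06 (SE 0.18, edgeR adjusted p = 0.8195); leaving out Runx1_FB_KO replicate 3 turned its sign, to 0.07. Rpl23a was at -0.10 (SE 0.19) and Rpl24 at -0.15 (SE 0.18). In all 3 genes knockout replicate 2 lay above at least 1 CTL library, and knockout replicate 3 was not the highest of its group, unlike in the genes with the smallest p-values. Both sets were chosen by these same values, so the contrast is a description only. Outside the subunit genes, Rpl36al, the autosomal paralog of Rpl36a, had 69.5, 76.4 and 79.8 CPM in the knockout and 98.2, 74.1 and 80.9 CPM in CTL, a log2 fold change of -0.17 (SE 0.16, edgeR adjusted p = 0.479). Rps19bp1 was low throughout, at 7.07, 6.64 and 7.30 CPM in the knockout and 10.7, 5.94 and 8.35 CPM in CTL.

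The differences had no visible relation to how abundant or how long a transcript was. Over the 59 subunit genes with at most 10% of reads in copies, the correlation across genes of the log2 fold change with log2 mean TPM was r = 0.007 (Spearman rho 0.05), and with log2 effective length r = -0.044 (rho 0.069). Genes are not independent replicates, and these values share the same 6 libraries. The order of the genes by level was close to the same in both groups (r = 0.963, rho 0.974 between the log2 of the mean TPM of the knockout and that of CTL). Across these 59 genes the median level was 729 TPM in the knockout, with a range of 390 to 1963, against 1529 TPM in CTL, with a range of 778 to 4703. TPM is a share of all transcripts, mitochondrially encoded ones included. On the TMM scale the difference was smaller, with a median log2 fold change of -0.42 over the same 59 genes.

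Ribosomal protein genes have many processed copies in the mouse genome, and Salmon divides reads that match a gene and its copies. A search of all transcripts with blastn assigned 1058 copies (at least 90% identity over at least 80% of the copy) to the members, and 75 of the 76 members searched had one or more. For 15 members over 10% of the combined reads went to copies. Among these were Rps16 with 33.6% and Rpl36a with 35.4%, both named above for their p-values. With copies added their log2 fold changes were -0.69 and -0.61. The lowest subunit genes per length were also among the 15. Rps12, Rpl12 and Rpl5 had 96.0%, 95.6% and 95.8% of their combined reads in copies, and Rpl10 had 89.5%. Whether those reads came from the gene or from a transcribed copy cannot be told apart here, so the levels of these genes alone are uncertain.

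**Figure D4:**
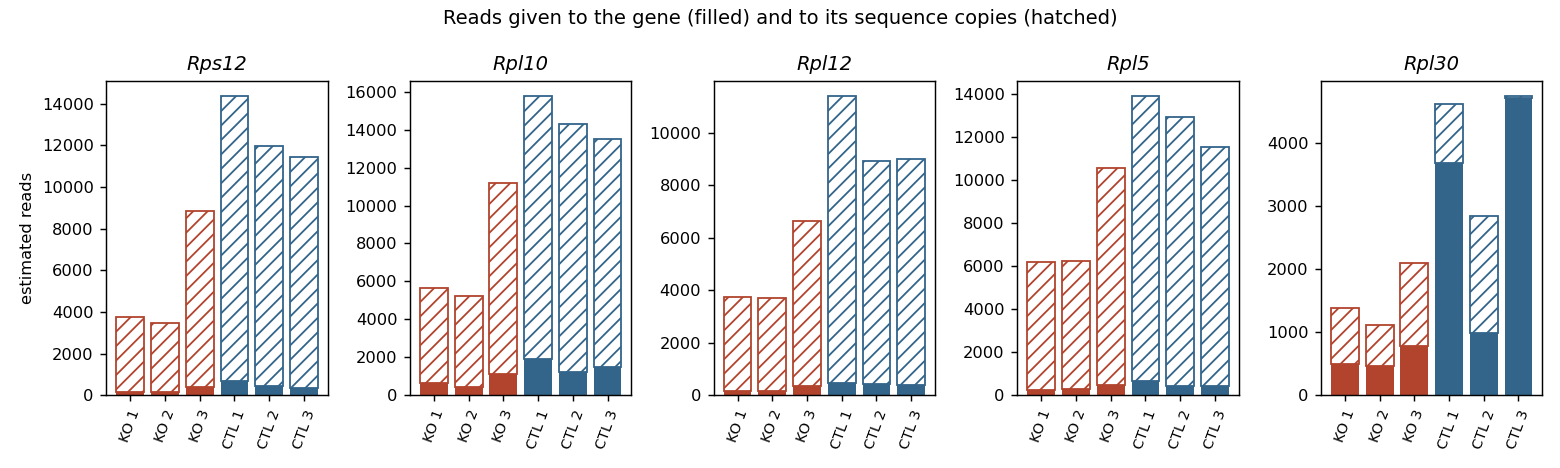
Estimated reads (vertical axis) given to 5 genes (filled) and to all their sequence copies (hatched, stacked on top) in each Runx1_FB_KO (KO) and CTL library; reads are not scaled by library. Rps12, Rpl10, Rpl12 and Rpl5 have nearly all reads in copies in every library, while for Rpl30 the filled part changes from library to library, and most of all within CTL.

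Rps12 by itself had 10.1, 11.8 and 21.1 CPM in the knockout and 30.1, 18.6 and 17.3 CPM in CTL, and its groups overlapped. With the copies added, the family had 244, 269 and 451 CPM in the knockout and 639, 533 and 568 CPM in CTL, with no overlap, at a log2 fold change of -0.85 (SE 0.29, edgeR adjusted p = 0.111). Rps12-ps3 held most of those reads, with 234, 257 and 428 CPM in the knockout and 606, 514 and 548 CPM in CTL. Rpl10, which is needed for the late maturation of the 60S subunit, had 42.3, 35.2 and 58.0 CPM in the knockout and 85.6, 55.6 and 72.6 CPM in CTL; with copies the family had 369, 408 and 571 CPM in the knockout and 702, 638 and 673 CPM in CTL. Rpl10-ps3 held most of that family, with 324, 373 and 511 CPM in the knockout and 613, 578 and 597 CPM in CTL. In both families the copy followed the pattern of the subunit genes that share few reads. Without Runx1_FB_KO replicate 3 edgeR called both genes (adjusted p = 0.0231 for Rps12 and 0.0124 for Rpl10), both named copies (0.00102 for Rps12-ps3 and 0.00578 for Rpl10-ps3) and both families.

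Rpl12 had 10.5, 11.2 and 16.9 CPM in the knockout and 20.4, 19.0 and 19.7 CPM in CTL, and was called by edgeR without Runx1_FB_KO replicate 3 (adjusted p = 0.00456). Rpl5 alone had 15.9, 23.1 and 24.2 CPM in the knockout and 29.9, 19.3 and 21.8 CPM in CTL, and its small log2 fold change of -0.17 turned to 0.002 without Runx1_FB_KO replicate 1 and to 0.037 without CTL replicate 1. Its family with copies had 404, 484 and 540 CPM in the knockout, against 619, 577 and 574 CPM in CTL. With copies added to every member, 77 genes were tested, all 77 had a negative log2 fold change, the median was -0.42, and 67 did not overlap, against 18.9% of all genes tested in that fit. EdgeR called 0 of them with all libraries and 44 lower without Runx1_FB_KO replicate 3, against 22.7% of all genes.

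The other copies among the members were few. Rps27rt, a retrogene, had 151, 211 and 179 CPM in the knockout and 203, 242 and 212 CPM in CTL, and its groups overlapped. Rpl36a-ps1 had 0.85, 0.39 and 0.66 CPM in the knockout, against 2.76, 0.94 and 1.54 CPM in CTL. Rpl9-ps6, the only member with a positive log2 fold change, had 0.85, 0.55 and 0.92 CPM in the knockout and 0.58, 0.71 and 0.80 CPM in CTL; at this depth its log2 fold change of 0.16 had an SE of 0.47, and with library size as the sole scaling it was -0.27.

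Rpl30 had the largest log2 fold change and the smallest p of all the members, and it was also the gene whose reads were divided least evenly. It had 32.2, 35.5 and 39.9 CPM in the knockout and 164, 44.3 and 234 CPM in CTL, a log2 fold change of -2.04 (SE 0.54, edgeR adjusted p = 0.0783; without Runx1_FB_KO replicate 3, -2.08, edgeR adjusted p = 0.0283). The CTL libraries differed among themselves far more than those of any other gene in the plot of subunit genes by library. Its copies together were given 882, 656 and 1312 reads in the knockout and 937, 1843 and 35 reads in CTL, so that the CTL library with the most reads in Rpl30 had the fewest in copies, and the one with the fewest had the most. Among the 17 copies of Rpl30 was Gm12191, which is intronless. A stretch around the sole mismatch shows how alike they are: over 348 aligned bases the transcript of Rpl30 (GRCm38 chr15:34440505-34443640, minus strand) and Gm12191 (chr11:49678710-49679057, minus strand) differ at 1 base. Bases 71 to 121 of the aligned part are given 5′ to 3′, with the base that differs in capitals.
Rpl30: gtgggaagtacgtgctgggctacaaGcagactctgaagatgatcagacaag
Gm12191: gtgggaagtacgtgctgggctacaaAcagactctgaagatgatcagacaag
With the copies added, the Rpl30 family had 89.9, 86.5 and 107 CPM in the knockout and 206, 127 and 236 CPM in CTL. That gave a log2 fold change of -1.0 (SE 0.26, edgeR adjusted p = 0.0746), less than with Rpl30 alone. The size of the difference in Rpl30 is therefore uncertain, while the groups did not overlap on either count.

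Because TOP tracts mark these mRNAs, the start sites of the subunit genes were read in RefSeq's promoter table (GRCm38.p6), which held 55 of the 74 subunit genes (59 of the 84 members). A cytosine followed by 4 bases that are each C or T stood exactly at the annotated start in 12 of the 55 (21.8%), against 3.01% of the 27025 genes in the table; starting within 10 bases of it, the same pattern was found in 58.2%, against 34.4% of all genes. The letters CCGGAAG, the core that Ets-family factors bind, were found on either strand within 250 bases before to 50 after the start in 43.6% of the subunit genes, against 9.93% of all genes, and AAGATGG, the core bound by Yy1, in 12.7%, against 7.28%. The windows below run from 30 bases before the annotated start to 20 bases from it, 5′ to 3′ on the strand of the gene, with the pyrimidine run that covers the start, or ends just before it, in capitals. Rps6, Rpl38 and Rplp2 have the tract at the start, and Rpl36a and Rpl11 do not.
Rps6, chr4:86857348-86857397, minus strand: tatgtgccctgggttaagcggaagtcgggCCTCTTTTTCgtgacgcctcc
Rpl38, chr11:114668550-114668599, plus strand: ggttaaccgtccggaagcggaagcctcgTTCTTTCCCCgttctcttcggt
Rplp2, chr7:141447621-141447670, plus strand: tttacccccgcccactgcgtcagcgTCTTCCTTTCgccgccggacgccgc
Rpl36a, chrX:134585624-134585673, plus strand: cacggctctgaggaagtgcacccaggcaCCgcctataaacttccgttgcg
Rpl11, chr4:136053374-136053423, minus strand: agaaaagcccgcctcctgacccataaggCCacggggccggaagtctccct
The 12 genes with the pattern exactly at the annotated start had a median log2 fold change of -0.42. The 43 of the table without it at that base had one of -0.43. Since 32 of the 55 had the pattern within 10 bases of the start, the 43 include genes with a tract nearby. The 2 medians were thus alike, but they do not compare genes with a tract to genes without one. Translation was not measured, and an annotated start may miss the one used in the heart.

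Genes that work beside the cytosolic ribosome did not share its pattern as a whole. Among further subunit genes, whose symbols are unlike the others, Fau and Rack1 were on the negative side. Fau, whose product is cleaved into a ubiquitin-like part and a 40S protein, had 181, 202 and 264 CPM in the knockout and 390, 338 and 391 CPM in CTL, a log2 fold change of -0.79 (SE 0.22, edgeR adjusted p = 0.0814). Rack1, a scaffold on the 40S subunit, had 379, 459 and 585 CPM in the knockout and 763, 637 and 709 CPM in CTL, at -0.57 (SE 0.25, edgeR adjusted p = 0.162). Both were called without Runx1_FB_KO replicate 3 (edgeR adjusted p = 0.00223 for Fau and 0.0119 for Rack1).

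Mitochondrial ribosomal proteins, which serve the separate ribosome that translates mitochondrially encoded genes, stood on the other side. All 78 were tested; 76 had a positive log2 fold change, the median was 0.87, and edgeR called 0 (0.0% of all genes). At an unadjusted p under 0.05, 58 were higher and 0 lower, against 19.3% and 13.1% of all genes, and all 3 knockout libraries lay above all 3 CTL libraries in 46, against 20.2%. Without Runx1_FB_KO replicate 3, edgeR called 65 higher and 0 lower, against 25.1% and 22.5% of all genes. Mrpl42 had 186, 229 and 77.9 CPM in the knockout and 44.5, 45.3 and 36.0 CPM in CTL, a log2 fold change of 1.97 (SE 0.39, edgeR adjusted p = 0.0682). Mrps23 had 135, 138 and 69.6 CPM in the knockout and 43.5, 46.1 and 42.9 CPM in CTL, at 1.37 (SE 0.27, edgeR adjusted p = 0.0682). Both were called without Runx1_FB_KO replicate 3, each with an edgeR adjusted p of 7.6e-05. In both, knockout replicate 3 was the lowest of its group, where for 66 of the 81 cytosolic genes tested it was the highest.

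**Figure D5:**
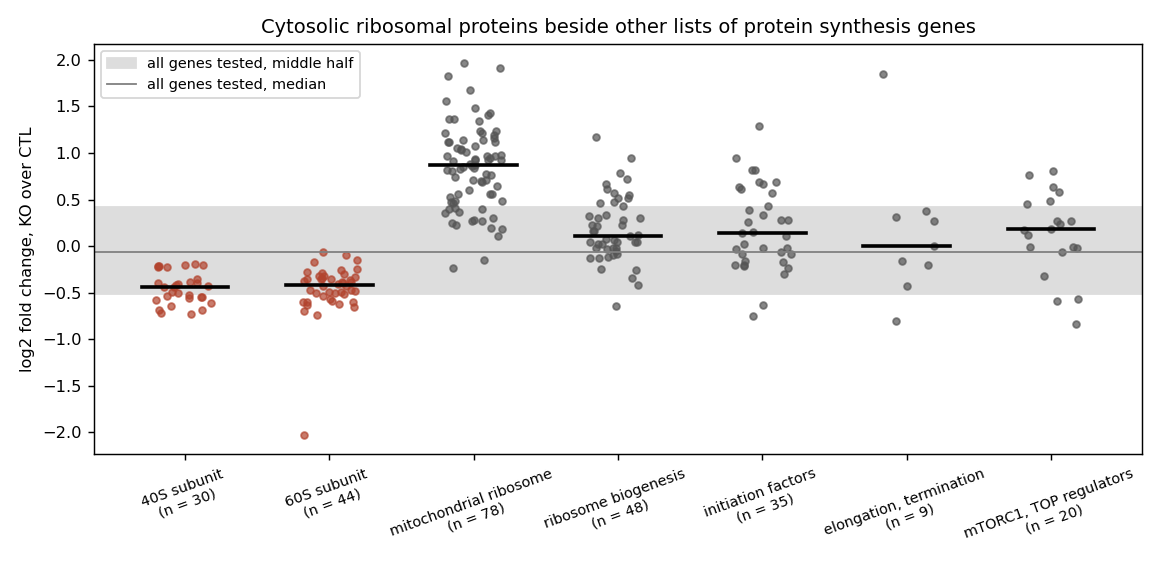
Log2 fold change of Runx1_FB_KO (KO) over CTL (vertical axis) for single genes (points) of 7 lists (horizontal axis), with black bars for list medians; the grey band and line are the quartiles and median of all 14237 genes tested. The 40S and 60S points lie below 0, 76 of the 78 mitochondrial ribosomal points lie above 0, and the other lists straddle it.

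The lists for the making and use of ribosomes had medians from -0.002 to 0.14, slightly above the -0.06 of all genes. On the positive side were 33 of 48 biogenesis genes and 20 of 35 initiation genes, against 46.0% of all genes. In both lists fewer genes than the background were lower by edgeR at an unadjusted p under 0.05. Of 48 genes of ribosome biogenesis, 10 were higher and 1 lower at an unadjusted p under 0.05, where 19.3% of all genes were higher and 13.1% lower, so the higher count was near the background; the median was 0.11, and the smallest p-values were those of Rrp12, a factor for ribosome export, at 0.79 (SE 0.17, edgeR adjusted p = 0.0682), and Polr1e, a subunit of RNA polymerase I, at 1.17 (SE 0.32, edgeR adjusted p = 0.0819). Of 35 initiation factor genes, 10 were higher and 1 lower by the same measure, against the same 19.3% and 13.1% of all genes, with a median of 0.14; Eif4e, the cap-binding protein, was at 1.29 (SE 0.32, edgeR adjusted p = 0.0709) and Eif4a2, an RNA helicase, at 0.95 (SE 0.27, edgeR adjusted p = 0.0871). Of 9 elongation and termination genes, 1 was higher and none lower by that measure, with a median of -0.002. They were mixed in direction, with 5 on the negative side and 4 on the positive, from -0.81 to 1.85. Eef1a2, the isoform of the elongation factor found in muscle and nerve, had 1275, 1420 and 505 CPM in the knockout and 273, 320 and 294 CPM in CTL, at 1.85 (SE 0.41, edgeR adjusted p = 0.0682), while Eef1b2, which reloads that factor with nucleotide, was at -0.43 (SE 0.19, edgeR adjusted p = 0.171). Without Runx1_FB_KO replicate 3 edgeR called 15 biogenesis genes higher and 2 lower, 14 initiation genes higher and 2 lower, and 4 elongation genes higher and 2 lower, against 25.1% and 22.5% of all genes; the 6 genes named here were all among them (largest adjusted p = 0.0228, Eef1b2).

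Of 20 genes of mTORC1 signalling and of TOP mRNA regulation, 5 were higher and 2 lower at an unadjusted p under 0.05, near the 19.3% and 13.1% of all genes, with a median of 0.18. Deptor, an inhibitor of mTOR, had 23.6, 20.8 and 26.6 CPM in the knockout and 36.0, 33.3 and 36.1 CPM in CTL, at -0.57 (SE 0.15, edgeR adjusted p = 0.0771). Larp4, which binds poly-A tails, was at 0.64 (SE 0.17, edgeR adjusted p = 0.0802). Of 6 other mRNAs known to carry a TOP tract, 5 were on the negative side, against 54.0% of all genes, with a median of -0.20. At an unadjusted p under 0.05, 1 was higher and 0 lower, against 19.3% and 13.1% of all genes. Npm1, a nucleolar chaperone, was at -0.42 (SE 0.19, edgeR adjusted p = 0.171). Naca, which binds nascent chains and has a long muscle isoform, had 579, 813 and 369 CPM in the knockout and 328, 323 and 290 CPM in CTL, at 0.91 (SE 0.31, edgeR adjusted p = 0.114); with an offset for effective length its sign turned, to -0.054. When Runx1_FB_KO replicate 3 was left out, the 4 genes of these lists named here were called (largest edgeR adjusted p = 0.0246, Npm1). In that fit 8 genes were called higher and 3 lower in the mTORC1 list, and 1 of each among the other TOP mRNAs. Of all genes 25.1% were called higher and 22.5% lower.

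Markers of cell types moved with the same libraries. The 10 cardiomyocyte markers summed to 69223, 89242 and 24442 CPM in Runx1_FB_KO replicates 1 to 3, against 11607, 12384 and 10135 CPM in CTL, and all 10 were higher at an unadjusted p under 0.05, as were 19.3% of all genes. The 10 fibroblast markers summed to 10313, 9184 and 28774 CPM in the knockout, against 33768, 36307 and 32946 CPM in CTL, with 10 of 10 on the negative side (54.0% of all genes) and 2 at an unadjusted p under 0.05 (13.1% of all genes). For the 10 macrophage and monocyte markers the sums were 1300, 1253 and 3129 CPM in the knockout and 4923, 3082 and 3311 CPM in CTL, with 10 of 10 on the negative side and 4 at an unadjusted p under 0.05. EdgeR without Runx1_FB_KO replicate 3 called 10 of the 10 cardiomyocyte markers higher, 8 of the 10 fibroblast markers lower and 8 of the 10 macrophage and monocyte markers lower, against 25.1% of all genes higher and 22.5% lower. In all 3 lists knockout replicate 3 was the knockout library nearest to CTL, as it was for the ribosomal protein genes. The part of these shifts in the ribosomal protein result was not tested.

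The remaining marker lists held fewer genes. All 8 proliferation genes were on the negative side (54.0% of all genes), with a median of -1.50 and 3 lower at an unadjusted p under 0.05 (13.1% of all genes). Without Runx1_FB_KO replicate 3 edgeR called 8 of them lower, against 22.5% of all genes. All 5 T and NK cell markers tested were on the negative side, 4 of them at an unadjusted p under 0.05. Proliferation genes summed to 47.5, 31.3 and 190 CPM in the knockout and 408, 143 and 187 CPM in CTL, T and NK cell markers to 2.75, 3.67 and 3.93 CPM in the knockout and 10.6, 15.0 and 8.45 CPM in CTL, and B cell markers to 2.42, 2.34 and 8.27 CPM in the knockout and 4.54, 14.7 and 50.1 CPM in CTL. Endothelial sums ran from 1067 to 1134 CPM in the knockout and from 993 to 1093 CPM in CTL, and mural sums from 960 to 1312 CPM in the knockout and from 675 to 941 CPM in CTL. The mural list was split, with 3 of 6 markers on the negative side and 3 on the positive, from -0.80 to 2.17. By edgeR, 1 mural marker was higher and 1 lower at an unadjusted p under 0.05, against 19.3% and 13.1% of all genes. Of 8 endothelial markers, 7 were on the negative side (54.0% of all genes) and 1 was at 1.41. Neutrophil sums ran from 1.31 to 16.2 CPM in the knockout and from 7.86 to 21.8 CPM in CTL, and erythroid sums from 535 to 3788 CPM in the knockout and from 809 to 4457 CPM in CTL. No marker was at 0 in all 6 libraries; Ly6g was at 0 in at least 1.

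By transcript type, 94.6%, 95.1% and 94.0% of the members' reads in the knockout were given to protein-coding transcripts, against 93.5%, 93.8% and 93.5% in CTL. Transcripts with a retained intron took 1.99%, 1.88% and 2.29% in the knockout and 2.58%, 2.27% and 2.39% in CTL, and transcripts marked for nonsense-mediated decay took 1.67%, 1.48% and 1.85% in the knockout and 2.04%, 2.0% and 2.0% in CTL. For protein-coding and decay transcripts the groups did not overlap, though the differences were about 1 percentage point or less.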

How the data were processed

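Members and lists were chosen with earlier results of these data known. Per the labels, each library came from poly-A RNA of 1 heart sample; nothing beyond the replicate numbers states separate animals, so p-values measure the spread between these samples. The authors deposited, for each transcript, an estimated count, a TPM value and an effective length. Salmon 1.5.2, DESeq2 1.44.0 and build mm10 (GRCm38) are named in the submitters' processing notes; for the annotation release, the sources used here give none. Transcripts were matched to GRCm38 genes by identifier. Of 116546 transcripts 569 did not match, and their 0.0777% to 0.102% of reads went unused. Estimated counts were summed per gene, rounded, filtered with filterByExpr (14237 genes) and scaled by TMM (factors 0.732 to 1.21). Runx1_FB_KO was compared with CTL by the quasi-likelihood test of edgeR 4.0.16 on genotype alone (R 4.3.3), adjusted by Benjamini-Hochberg over all genes, threshold 0.05; SE is the absolute log2 fold change over the square root of F. CPM values are counts scaled by the TMM-adjusted library size. TPM was used as deposited. Copies were found with blastn 2.17.0. Named genes were the members chosen by role, those with the smallest p per subunit, the highest and lowest 3 by TPM, and 2 per other list; 8 members were named after their values were seen. Some genes of the lists are not reported here. The fit was run on simulated counts in which 200 genes changed by at least 1 log2 unit, each on its own. That does not gauge its power for the smaller, shared shift of the ribosomal protein genes. Alternatives were sex or replicate number as a term, other scalings, no filter, DESeq2 1.42.0, limma-voom (limma 3.58.1), a length offset, copies added and each library left out; adding all sequence copies was chosen after seeing the data.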

Additional observations from a re-analysis of the deposited data

How the results depend on the processing

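With all 6 libraries, edgeR called 0 genes over all genes, among the ribosomal protein genes and in the other pathway lists under each other scaling, the length offset, sex as a covariate and the copies added, and limma-voom also called 0. Without the low-count filter it called 889 genes, 0 ribosomal protein genes and 20 genes of the other lists; DESeq2 called 3018, 26 and 72. Leaving out each library in turn gave 0 to 6947 genes, 0 to 42 ribosomal protein genes and 0 to 118 genes of the other lists, the upper value in each case without Runx1_FB_KO replicate 3; with sequence copies added as well these were 6949, 44 and 118. The median log2 fold change of the ribosomal protein genes ran from -0.489 to -0.344 over the left-out libraries, and was -0.493 with copies added and Runx1_FB_KO replicate 3 left out and -0.51 with sex as a covariate. With library size as the sole scaling it was -0.859 and that of all genes -0.519; relative to all genes the shift was -0.34, against -0.368 with TMM. The share of reads differed by -2.02 to -1.39 percentage points over the left-out libraries. Signs turned for Rpl5 (0.002 without Runx1_FB_KO replicate 1, 0.037 without CTL replicate 1, from -0.295 to 0.037 over the left-out libraries), Rpl36 (0.067 without Runx1_FB_KO replicate 3, 0.061 with copies added as well, from -0.19 to 0.067 over the left-out libraries), Rpl9-ps6 (-0.272) with library size alone, and Naca (-0.054) with the length offset; the cause was not tested. Of the other single-gene values 732 kept direction and side of the threshold and 95 moved past it.

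No pairing of the samples by replicate number was seen: same-numbered libraries correlated at -0.051, 0.113 and 0.081 in their deviations from the group means. With so few libraries per group these values cannot exclude a pairing. With the replicate block edgeR called 0 genes, 0 ribosomal protein genes and 0 genes of the other lists, the median was -0.436, and 13 rather than 33 ribosomal protein genes had an unadjusted p under 0.05.

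With 3 libraries per group and a wide spread in the knockout, depth was not what limited the subunit genes, all of which had over 100 reads in each library; it limited Rpl9-ps6 and Rpl36a-ps1. Reads shared with copies limit the 15 members with over 10% of their combined reads in copies, among them Rps12, Rpl12, Rpl5, Rpl10, Rpl30, Rps16 and Rpl36a.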
